A study of Mus musculus with 8 samples.

Results

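The genes described here are the collagen alpha chain genes, taken as every gene symbol made of Col, a number, the letter a and a further number. They were 44 of the 25239 symbols counted, and none was chosen by its measured level. By the structure of the protein, 11 belonged to the fibrillar collagens, 6 to the basement membrane collagen IV, 2 to the collagens of the basement membrane zone and 9 to the FACITs, the fibril-associated collagens with interrupted triple helices. A further 6 encoded the collagen VI chains of beaded filaments, 3 the network collagens VIII and X, and 4 the transmembrane collagens. Anchoring fibril collagen VII, the von Willebrand domain collagen XXVIII and collagen XXVI had 1 gene each. RNA-Seq had been carried out on whole mouse fetal ovaries at E14.5, and the question was what changes when the type 1 BMP receptor BMPR1A is deleted from germ cells. Control embryos were *Bmpr1a* fl/fl and *Bmpr1a*-cKO (mutant) embryos were *Bmpr1a* fl/fl; *Oct4-Cre* Cre/WT littermates, females on a C57BL/6 background. All embryos of both genotypes were exposed to 4-hydroxytamoxifen (1 mg) and progesterone (0.5 mg) which the pregnant dams received by injection at 9.5 dpc and again at 10.5 and at 11.5 dpc, because this Cre is inducible and works in *Oct4*-expressing cells, which in the fetal gonad are the germ cells. Ovary pairs of 8 embryos per genotype from 6 litters were pooled into 4 libraries per genotype, and the litter of each library was not used here. Controls carried no Cre, so the effects of Cre and of the deletion cannot be told apart.

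Collagens are built from 3 alpha chains wound into a triple helix, each chain made by its own gene. The fibrillar types I, III and V form the tensile fibres of connective tissue, collagen IV forms the sheet-like network of basement membranes, and the smaller classes coat fibrils or link them to cells. In the fetal ovary, cords of germ cells and pregranulosa cells are wrapped in a basement membrane and lie in a stroma of mesenchymal cells that makes fibrillar collagen.

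The libraries held 8562961 to 15365052 counts. *Bmpr1a* was counted at 199 to 236 CPM (counts per 1000000 counts of the library, scaled by the TMM method) in control and 185 to 209 CPM in mutant libraries (Log2FC -0.16 ± 0.06 SE, FDR 0.0692 by edgeR), and a count over the whole gene in whole ovary does not show the deleted exons. The stromal markers *Pdgfra* and *Nr2f2* were present in every library, but the cells that made each collagen mRNA were not measured. In these bulk samples, fewer cells of a type and less RNA per cell cannot be told apart.

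Most collagen mRNA of these ovaries came from a few abundant chains, and these abundant fibrillar chains were not among those that passed the test. Of the 44 genes, 41 passed the filter on low counts and were tested. The other 3, *Col8a1* and *Col10a1* of the network collagens and *Col28a1*, had under 10 counts in all 8 libraries and are taken as not expressed, the limit being under 10 counts in at least 5 libraries. An FDR below 0.05 was reached by 9 genes, 2 upregulated (*Col9a1* and *Col5a3*) and 7 downregulated (*Col9a2*, *Col18a1*, *Col6a5*, *Col26a1*, *Col23a1*, *Col4a1* and *Col6a1*) in mutant ovaries. These 9 are 22.0% of the 41, and 29.8% of all 14249 genes tested had an FDR below 0.05. By direction, 17.3% of all genes tested were upregulated and 12.5% downregulated at this FDR, against 4.88% and 17.1% of the collagen genes. With the added threshold of an absolute Log2FC above 0.5, which defined a differentially expressed gene, 2 collagen genes were higher (background 6.11%) and 3 lower, *Col9a2*, *Col18a1* and *Col6a5* (background 4.06%).

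The log2 fold changes of the collagen genes lay mostly below 0. Their median was -0.16, and 33 of 41 (80.5%) were negative, beside a median of -0.0042 and 50.7% negative over all genes tested. No test was made of the collagen genes as a list. The 4 control and 4 *Bmpr1a*-cKO libraries did not overlap for 2 genes with *Bmpr1a*-cKO above (background 16.1%) and 6 with *Bmpr1a*-cKO below (background 11.7%). The counts depended on a single library. Without *Bmpr1a*-cKO library 1, the number of collagen genes with an FDR below 0.05 was 18 of 41, 16 of them lower, while the share over all genes was 35.2%. Those called lower were then 5 (12.2%, beside 4.27% of all genes), with *Col24a1* and *Col9a3* added.

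**Figure D1:**
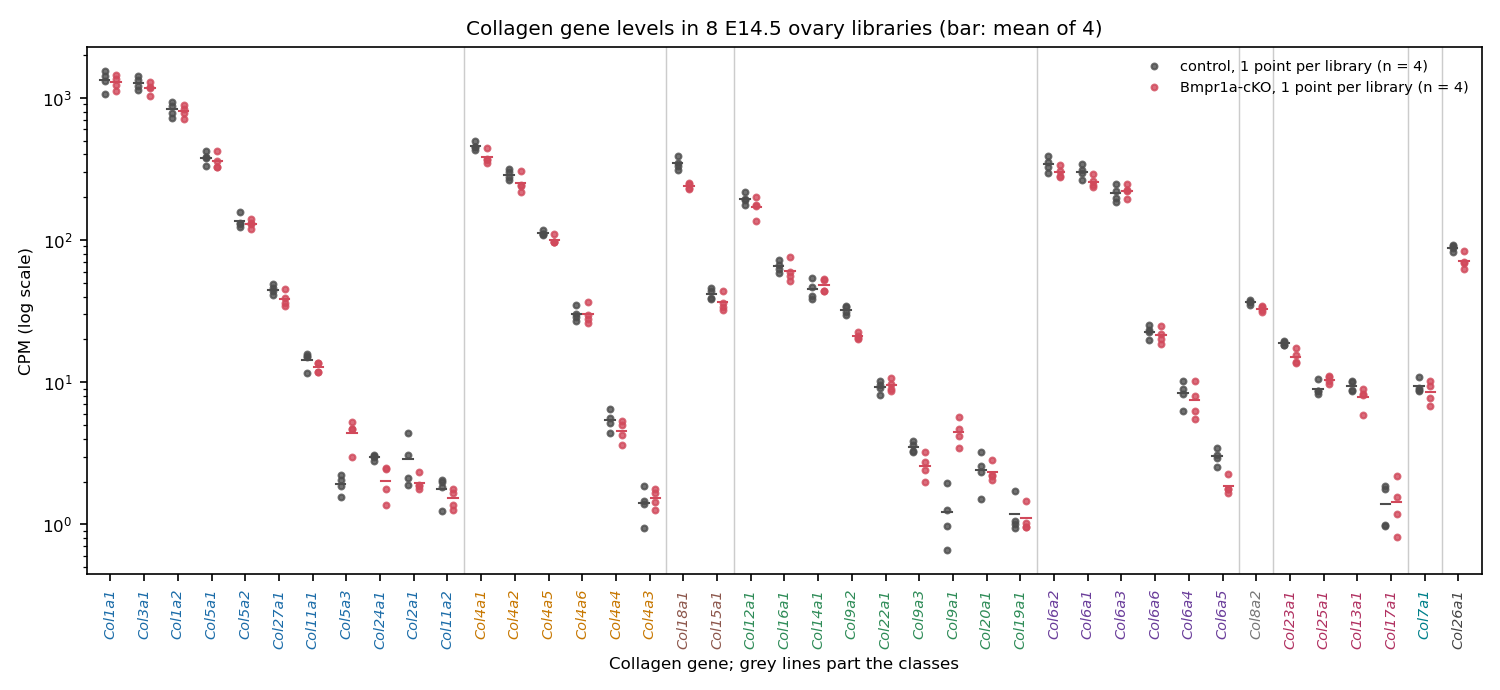
CPM of the 41 tested collagen genes in each of the 8 libraries on a log scale (dark, control; red, *Bmpr1a*-cKO; 1 point per library, bar at the mean of 4), grouped by class and ordered by level. Mean levels run from about 1 CPM to 1312 CPM, and the genotypes part visibly for *Col5a3* and *Col9a1* (higher) and *Col18a1*, *Col9a2* and *Col6a5* (lower).

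**Figure D2:**
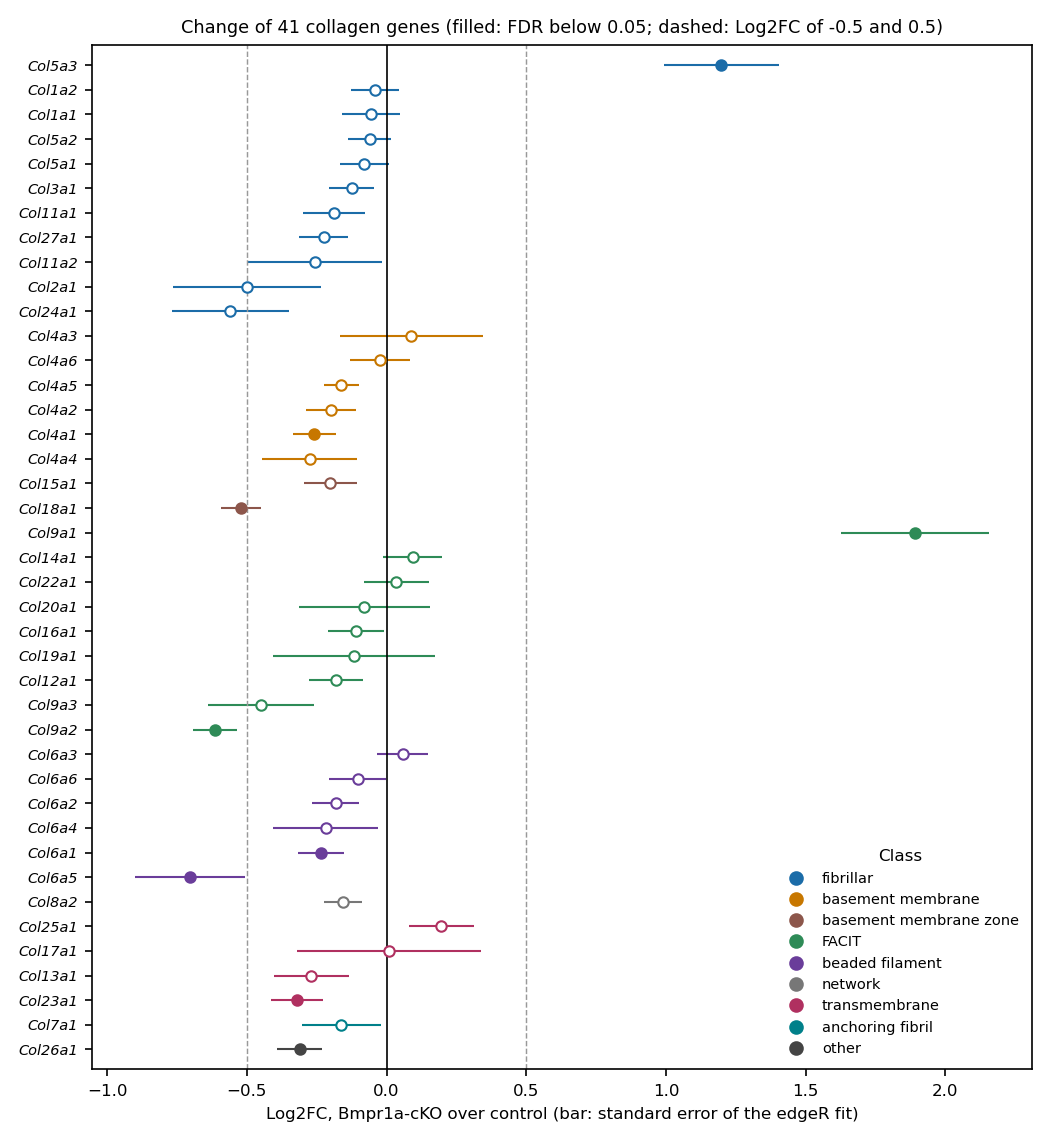
Log2FC of *Bmpr1a*-cKO over control with its standard error for the 41 tested collagen genes, coloured by class (filled, FDR below 0.05). Of these, 33 lie left of 0, and *Col9a1* at 1.89 and *Col5a3* at 1.20 stand to the right.

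Among the fibrillar collagens, the chains of types I, III and V that make up the bulk of stromal fibrils had similar levels in both genotypes, and only the minor type V chain *Col5a3* passed the test of the 11 genes. *Col1a1*, the alpha1 chain of collagen I, was at 1312, 1065, 1430 and 1544 CPM in control libraries 1 to 4 and at 1448, 1109, 1356 and 1234 CPM in mutant libraries 1 to 4. The ranges overlapped nearly completely, with a Log2FC of -0.06 ± 0.10 (SE, FDR 0.729). Its partner chain *Col1a2* was counted at 777, 725, 876 and 939 CPM in control and 896, 708, 835 and 785 CPM in mutant libraries (Log2FC -0.04 ± 0.09, FDR 0.762). Both chains were lowest in control library 2 among controls and in *Bmpr1a*-cKO library 2 among the mutants.

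*Col3a1*, whose product forms the homotrimer of collagen III, stood at 1206, 1138, 1337 and 1421 CPM in control and 1288, 1036, 1167 and 1186 CPM in mutant libraries. Its Log2FC was -0.13 ± 0.08 (FDR 0.271), and the groups overlapped. *Col5a1*, the alpha1 chain of collagen V, which starts the assembly of type I fibrils, was at 381, 332, 376 and 421 CPM in control and 423, 327, 357 and 324 CPM in mutant libraries, again overlapping (Log2FC -0.08 ± 0.09, FDR 0.536). *Col5a2*, the second chain of the main collagen V trimer, had a Log2FC of -0.06 (FDR 0.606).

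*Col5a3* encodes the alpha3 chain found in a minor form of collagen V. It was scarce, at 1.56, 1.86, 2.06 and 2.21 CPM in control and 2.98, 4.68, 5.23 and 4.70 CPM in mutant libraries, from 19 to 35 and 25 to 69 counts. Every *Bmpr1a*-cKO library lay above every control library, with library 1 the lowest of the mutants. The Log2FC was 1.20 ± 0.21 (FDR 0.000499 by edgeR), a 2.30-fold increase. Per kilobase of annotated exon, the *Col5a3* level was 0.282 ± 0.0410 CPM in control and 0.646 ± 0.144 CPM among mutants (SD, n = 4), while that of *Col5a1* was 44.5 ± 4.26 and 42.1 ± 5.39, so the alpha3 chain stayed far below the alpha1 chain in both genotypes.

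The remaining 5 fibrillar genes did not pass the test. *Col2a1*, *Col11a1* and *Col11a2*, which form the fibrils of cartilage, had Log2FCs of -0.50, -0.19 and -0.26. *Col2a1* was at 1.89 to 4.40 CPM in control and 1.79 to 2.32 CPM in mutant libraries. *Col27a1* had a Log2FC of -0.22 (FDR 0.0670). The FDR of *Col27a1* fell below 0.05 with scaling by library size alone or by germ cell markers, and with the replicate number as a block. It also fell below 0.05 without control library 2 or *Bmpr1a*-cKO library 1. For *Col24a1* (2.98 ± 0.125 CPM in control, 2.02 ± 0.552 CPM among mutants; SD, n = 4), all 4 controls lay above all mutants, but the FDR was 0.0571 (Log2FC -0.56 ± 0.21). Its FDR fell below 0.05 with limma-voom, with scaling by library size alone or by germ cell markers, and without *Bmpr1a*-cKO library 1. Under germ cell marker scaling 60.9% of all genes had an FDR below 0.05, so passing there does not set *Col27a1* or *Col24a1* apart.

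Collagen IV, the scaffold of every basement membrane, is made mainly from the *Col4a1* and *Col4a2* chains, and *Col4a1* was slightly lower in mutant ovaries. It was counted at 453, 429, 449 and 496 CPM in control and 447, 365, 369 and 347 CPM in mutant libraries. *Bmpr1a*-cKO library 1 fell within the control range and the other 3 lay below it. The Log2FC of *Col4a1* was -0.26 ± 0.08 (FDR 0.0196 by edgeR). The FDR passed 0.05 when control library 4 (0.0692) or *Bmpr1a*-cKO library 2 (0.0686), 3 (0.0558) or 4 (0.0594) was left out. *Col4a2* stood at 298, 263, 275 and 315 CPM in control and 304, 241, 243 and 217 CPM in mutant libraries, with the same library 1 above the other mutants (Log2FC -0.20 ± 0.09, FDR 0.111). Without that library, the Log2FC of *Col4a2* was -0.30 (FDR 0.00355).

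The other 4 collagen IV chains form the specialised networks of kidney, lung and smooth muscle, and none passed the test. *Col4a5* was at 110, 109, 108 and 118 CPM in control and 110, 96.4, 96.1 and 97.3 CPM in mutant libraries, so that library 1 alone reached the control range (Log2FC -0.16 ± 0.06, FDR 0.0609). Its FDR was 0.00940 without *Bmpr1a*-cKO library 1 and also went below 0.05 with DESeq2, among other settings. *Col4a6*, its partner chain, was at 26.8, 30.2, 28.6 and 35.0 CPM in control and 36.7, 26.2, 29.7 and 27.7 CPM in mutant libraries (Log2FC -0.02 ± 0.11, FDR 0.900), with control library 4 and *Bmpr1a*-cKO library 1 the highest. *Col4a3* and *Col4a4* were scarce. *Col4a3* had 1.40, 1.86, 0.936 and 1.45 CPM in control and 1.67, 1.26, 1.78 and 1.43 CPM in mutant libraries (Log2FC 0.09 ± 0.26, FDR 0.830). *Col4a4* had 5.17, 4.42, 6.46 and 5.61 CPM in control and 5.36, 4.23, 5.02 and 3.61 CPM in mutant libraries (Log2FC -0.28 ± 0.17, FDR 0.251). The libraries of both genotypes overlapped for all 4 of these genes.

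*Col18a1* had the lowest FDR of the abundant collagen genes and was downregulated. It encodes a collagen carrying heparan sulphate that sits at the outer face of basement membranes and whose end piece is released as endostatin. Its level was 329, 313, 390 and 349 CPM in control and 230, 231, 254 and 248 CPM in mutant libraries. Every mutant library, library 1 included, lay below the lowest control. The Log2FC was -0.52 ± 0.07 (FDR 6.23e-05 by edgeR), equal to a fold of 0.697. Over the 8 fits that left out 1 library each, its FDR stayed below 0.05 and its Log2FC ran from -0.57 to -0.46, and without control library 3 it was past the FDR limit but not the fold limit. Its relative *Col15a1* was at 38.3 to 45.6 CPM in control and 32.4 to 43.9 CPM in mutant libraries (Log2FC -0.20, FDR 0.123).

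Of the FACITs, collagen IX changed in opposite directions in its chains. Collagen IX is known from cartilage, where a trimer of the alpha1, alpha2 and alpha3 chains decorates type II fibrils. *Col9a1* had 8, 11, 21 and 20 counts in control and 29, 63, 54 and 61 counts in mutant libraries, that is 0.657, 0.973, 1.96 and 1.26 CPM against 3.45, 4.68, 5.65 and 4.16 CPM. The groups did not overlap, and *Col9a1* was among the 2 tested genes that did not reach the filter level (0.866 CPM) in all 8 libraries, *Col17a1* being the other. Its Log2FC was 1.89 ± 0.26 (FDR 8.56e-05 by edgeR), a 3.71-fold increase from a low level.

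*Col9a2* was at 31.4, 29.5, 34.1 and 33.5 CPM in control and 21.0, 20.5, 22.5 and 20.2 CPM in mutant libraries. The spread within each genotype was small beside the gap between them. The Log2FC of *Col9a2* was -0.61 ± 0.08 (FDR 3.37e-05 by edgeR), the lowest FDR among the collagen genes. *Col9a3* was at 3.21 to 3.84 CPM in control and 1.98 to 3.21 CPM in mutant libraries (Log2FC -0.45 ± 0.19, FDR 0.0902). Per kilobase of exon, the level of *Col9a2* in control ovaries was 10.4 ± 0.693 CPM, that of *Col9a3* 0.906 ± 0.0758 and that of *Col9a1* 0.240 ± 0.110 (SD, n = 4). The ratio of *Col9a1* to *Col9a2* per kilobase was 0.0128, 0.0202, 0.0351 and 0.0230 in control and 0.101, 0.139, 0.153 and 0.125 in mutant libraries, so *Col9a1* remained the minor mRNA of the pair in every library. The cartilage genes *Acan* (Log2FC 0.08, FDR 0.714) and *Hapln1* (-0.26, FDR 0.199) did not pass the test, and *Matn1*, *Matn3*, *Cnmd* and *Snorc* were not expressed at a level that could be tested.

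The other 6 FACIT genes did not pass the test. *Col12a1* (137 to 216 CPM over the 8 libraries), *Col16a1* (51.8 to 75.4 CPM) and *Col14a1* (38.6 to 54.5 CPM), which coat type I fibrils or other fibrils, had Log2FCs of -0.18, -0.11 and 0.09. *Col22a1*, *Col20a1* and *Col19a1* had 0.936 to 10.7 CPM and Log2FCs of 0.04, -0.08 and -0.12.

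**Figure D3:**
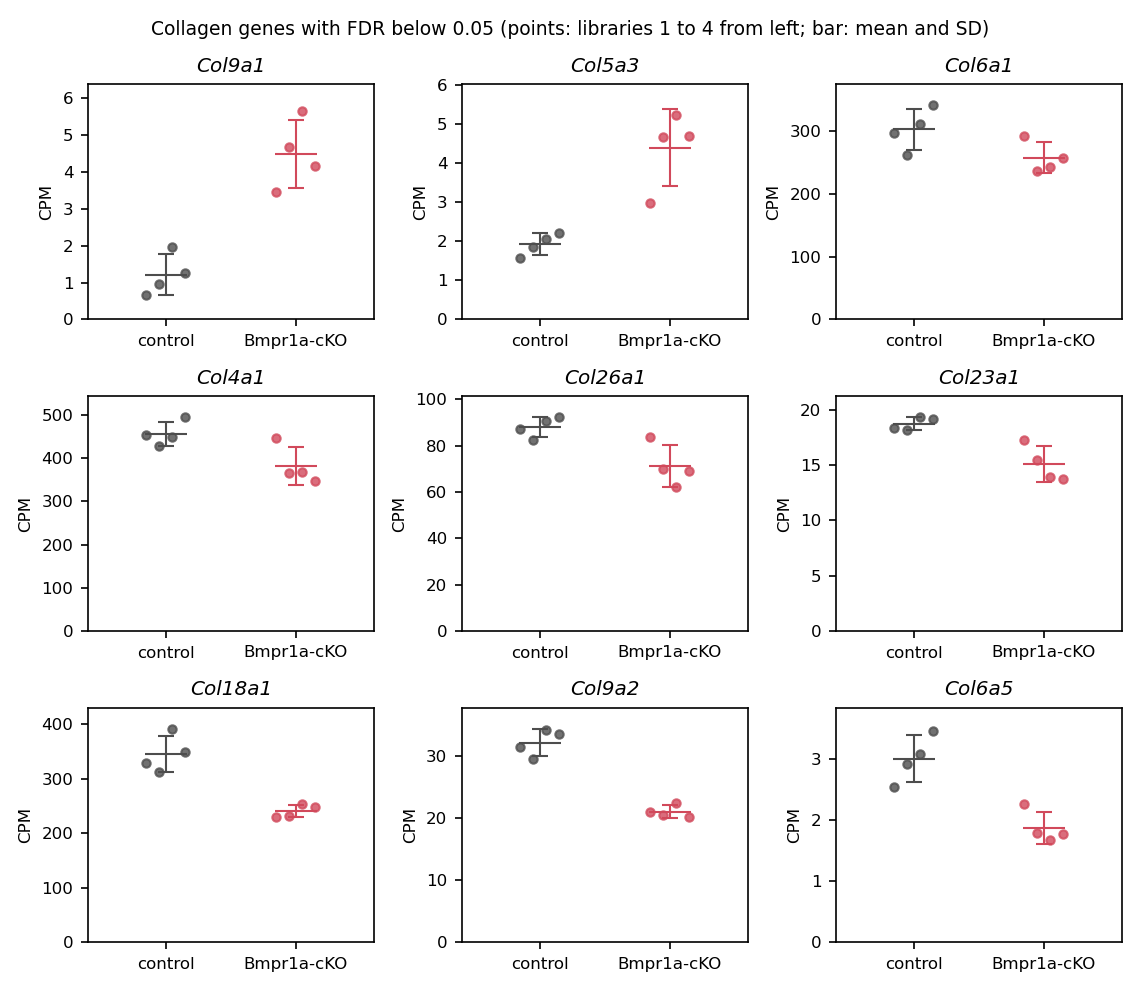
CPM of the 9 collagen genes with an FDR below 0.05 in the 4 control and 4 *Bmpr1a*-cKO libraries (points, libraries 1 to 4 from left to right; bar, mean and SD). The genotypes do not overlap for *Col9a1*, *Col5a3*, *Col23a1*, *Col18a1*, *Col9a2* and *Col6a5*, and *Bmpr1a*-cKO library 1 reaches the control range for *Col6a1*, *Col4a1* and *Col26a1*.

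The 5 genes past both thresholds lay on different chromosomes or far apart. On mm10, *Col9a1* spans chr1:24177610-24252684 on the plus strand, *Col9a2* chr4:121039385-121055322 on the plus strand, and *Col18a1* chr10:77052178-77166548 on the minus strand. *Col5a3* (chr9:20770050-20815067) and *Col6a5* (chr9:105856078-105960643) are both on the minus strand of chromosome 9. The sequences before their start sites are shown because these genes, 2 that rose and 2 that fell, passed both thresholds. They are the bases upstream of the RefSeq start (GRCm38.p6), each 250 bases long except that of *Col18a1*, which ends 19 bases before the start so that no annotated exon is included; the window of *Col9a2* overlaps an annotated exon and is not shown. Capitals mark the GC box (GGGCGG), the CCAAT box (CCAAT), the TATA box (TATAAA) and a GC-rich SMAD motif (GGCGCC), searched on both strands, which may overlap one another. The windows are chr1:24177360-24177609 (plus strand) for *Col9a1*, chr9:20815068-20815317 (minus) for *Col5a3*, chr10:77166549-77166780 (minus) for *Col18a1* and chr9:105960644-105960893 (minus) for *Col6a5*.
Col9a1: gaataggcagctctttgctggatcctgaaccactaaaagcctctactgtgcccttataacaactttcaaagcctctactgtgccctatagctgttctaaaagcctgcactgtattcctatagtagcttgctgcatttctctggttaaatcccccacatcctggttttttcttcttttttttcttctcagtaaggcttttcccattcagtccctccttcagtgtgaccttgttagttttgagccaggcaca
Col5a3: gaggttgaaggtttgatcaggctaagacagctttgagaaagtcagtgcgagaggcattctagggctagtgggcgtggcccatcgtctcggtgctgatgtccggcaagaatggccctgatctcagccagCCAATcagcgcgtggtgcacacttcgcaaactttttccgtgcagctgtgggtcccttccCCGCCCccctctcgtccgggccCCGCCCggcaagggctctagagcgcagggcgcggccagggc
Col18a1: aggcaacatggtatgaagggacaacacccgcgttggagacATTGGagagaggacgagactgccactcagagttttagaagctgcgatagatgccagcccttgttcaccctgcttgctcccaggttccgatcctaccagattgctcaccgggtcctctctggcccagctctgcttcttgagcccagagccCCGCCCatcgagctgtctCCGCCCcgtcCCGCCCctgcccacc
Col6a5: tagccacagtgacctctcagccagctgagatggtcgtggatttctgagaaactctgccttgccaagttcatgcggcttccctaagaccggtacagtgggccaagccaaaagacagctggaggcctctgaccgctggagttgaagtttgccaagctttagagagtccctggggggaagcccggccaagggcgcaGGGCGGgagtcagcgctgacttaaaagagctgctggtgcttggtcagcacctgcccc

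The window of *Col9a1* held none of these motifs and had a GC content of 43.6%, while that of *Col5a3* (62.8% GC) held 2 GC boxes and 1 CCAAT box. *Col18a1* showed 3 GC boxes and 1 CCAAT box, and *Col6a5* 1 GC box. The GC-rich SMAD motif was in none of the 4. RefSeq windows were found for 35 of the 44 collagen genes, 38 windows in all. A GC box was in 57.9% of these collagen windows and in 32.7% of all 32851 windows, beside a median GC content of 59% and 52.4%. The CCAAT box was in 34.2% of collagen and 33.8% of all windows, the TATA box in 13.2% and 12.4%, and the GC-rich SMAD motif in 10.5% and 9.59%. *Col9a1* and *Col18a1* each have a further RefSeq start, and counts per gene do not tell which start was used.

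Collagen VI forms beaded filaments around cells from the alpha1 and alpha2 chains with 1 of the longer chains encoded by *Col6a3*, *Col6a4*, *Col6a5* and *Col6a6*. *Col6a1* was at 297, 262, 312 and 342 CPM in control and 292, 237, 243 and 258 CPM in mutant libraries (Log2FC -0.24 ± 0.08, FDR 0.0427 by edgeR). *Bmpr1a*-cKO library 1 again lay inside the control range. The call depended on single libraries, and leaving out any of 6 libraries (control 1, 3 and 4 and *Bmpr1a*-cKO 2, 3 and 4) raised the FDR to between 0.0708 and 0.153, and scaling to stromal markers gave 0.0642. *Col6a2* was at 325, 296, 351 and 389 CPM in control and 337, 277, 280 and 306 CPM in mutant libraries, with overlap (Log2FC -0.18 ± 0.08, FDR 0.117). Without *Bmpr1a*-cKO library 1 its FDR was 0.0266 and without control library 2 it was 0.0334.

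*Col6a5* was a rare chain, at 2.55, 2.92, 3.09 and 3.47 CPM in control and 2.26, 1.78, 1.67 and 1.77 CPM in mutant libraries, from 31 to 55 and 16 to 26 counts. All mutant libraries lay below all controls, with a Log2FC of -0.70 ± 0.20 (FDR 0.0141 by edgeR), the largest decrease among the tested collagen genes. Without control library 4, the FDR of *Col6a5* was 0.0529. *Col6a3*, the abundant long chain (184 to 249 CPM), had a Log2FC of 0.06 (FDR 0.683), *Col6a6* -0.10 and *Col6a4* -0.22, and none of these passed the test. The ratio of *Col6a3* to *Col6a1* per kilobase was 0.232 to 0.273 in control and 0.274 to 0.346 in mutant libraries. The ranges nearly touched without overlap (control library 1 at 0.2733, *Bmpr1a*-cKO library 4 at 0.2738), and the ratio was not tested.

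The membrane-spanning collagens carry a short triple helix on the cell surface. *Col23a1* was the 1 of 4 to pass the test, at 18.3, 18.1, 19.4 and 19.2 CPM in control and 17.3, 15.5, 13.9 and 13.7 CPM in mutant libraries. Its controls were tightly grouped and lay above every mutant library (Log2FC -0.32 ± 0.09, FDR 0.0165 by edgeR). Its FDR was 0.0505 without *Bmpr1a*-cKO library 3 and 0.0589 without library 4. *Col13a1* and *Col25a1*, with 5.86 to 11.0 CPM, had Log2FCs of -0.27 and 0.20 (FDR 0.151 and 0.229), and *Col17a1*, a hemidesmosome component at 0.817 to 2.20 CPM, one of 0.01 (FDR 0.989).

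*Col26a1*, a secreted chain first described in testis and ovary, was at 87.2, 82.6, 90.7 and 92.2 CPM in control and 83.8, 70.0, 62.2 and 69.0 CPM in mutant libraries. *Bmpr1a*-cKO library 1 overlapped the controls and the other 3 lay below (Log2FC -0.31 ± 0.08, FDR 0.00843 by edgeR). *Col8a2*, the expressed network collagen, was at 34.8 to 37.9 CPM in control and 31.0 to 34.5 CPM in mutant libraries, without overlap but with an FDR of 0.100 (Log2FC -0.15). *Col7a1*, which makes anchoring fibrils, had a Log2FC of -0.16 (FDR 0.425). Among the 3 genes not expressed, *Col8a1* and *Col28a1* did not exceed 0.468 and 0.732 CPM, and *Col10a1*, a gene of hypertrophic cartilage, was at 0 in 7 libraries and at 0.0884 CPM in the other.

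Summed over all 44 genes, collagen mRNA was 6534, 5908, 6932 and 7514 CPM in control and 6894, 5585, 6169 and 5907 CPM in mutant libraries. The ranges overlapped, and the means were 6722 ± 676 and 6139 ± 557 CPM (SD, n = 4). These means differed by -0.13 on the log2 scale, where the SD of single libraries was 0.138, and the difference was not tested. The 3 genes with the most counts, *Col1a1*, *Col3a1* and *Col1a2*, made up 51.1% ± 1.38 of this sum in control and 53.1% ± 1.57 in mutant ovaries. The sum over collagen IV was 838 to 971 CPM in control and 694 to 904 CPM in mutant libraries, and that over collagen VI 771 to 1015 and 768 to 916 CPM. Among the 5 classes with several expressed genes plotted by library, the sums of the 2 genotypes parted for *Col15a1* and *Col18a1* together alone, at 351 to 434 CPM in control and 267 to 286 CPM in mutant libraries, most of it *Col18a1*. Their share of collagen CPM was 5.78% ± 0.430 and 4.54% ± 0.384. Of the classes not plotted, the network sum, most of it *Col8a2*, also parted, at 35.2 to 38.2 against 31.4 to 34.9 CPM. The transmembrane sum overlapped, at 36.2 to 41.5 CPM in control and 32.1 to 38.2 CPM in mutant libraries.

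**Figure D4:**
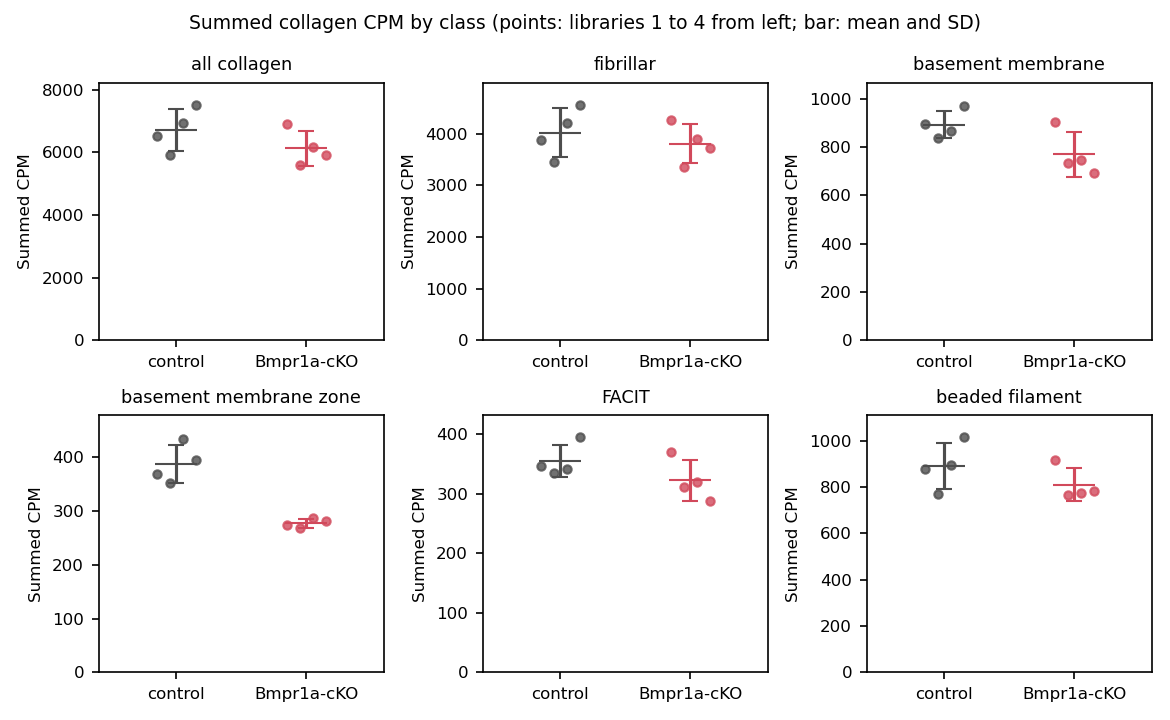
Summed CPM of all 44 collagen genes and of 5 classes in each library (points, libraries 1 to 4 from left to right; bar, mean and SD; axes start at 0). The control and *Bmpr1a*-cKO points overlap in every panel but that of the basement membrane zone, at 387 and 277 CPM on average.

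Per kilobase of annotated exon, the highest levels in control ovaries were those of *Col1a1* (204 ± 31.3 CPM per kilobase), *Col3a1* (130 ± 13.0), *Col6a1* (69.2 ± 7.55), *Col1a2* (66.7 ± 7.76) and *Col4a1* (61.2 ± 3.77) (SD, n = 4). The last 3 differed by about the spread between libraries. *Col18a1* was sixth in control at 49.2 ± 4.75 and fell to 34.3 ± 1.68 CPM per kilobase among mutants. For 3 pairs of chains that share a trimer, the ratio overlapped between the genotypes. The ratio of *Col1a1* to *Col1a2* per kilobase was 3.05 ± 0.181 in control and 3.02 ± 0.0582 in mutant ovaries, that of *Col4a1* to *Col4a2* 1.41 ± 0.0485 and 1.35 ± 0.0454, and that of *Col5a1* to *Col5a2* 3.15 ± 0.145 and 3.09 ± 0.236. The ratio of *Col6a1* to *Col6a2*, 1.69 ± 0.0276 in control and 1.63 ± 0.0192 among mutants, did not overlap. These lengths are unions of all annotated exons, so these ratios of mRNA levels are not those of the protein chains.

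Several collagen genes lie next to each other, head to head, tail to tail or in tandem, and such neighbours did not always change alike. *Col4a1* and *Col4a2* on chromosome 8 are divergent and their first exons overlap on opposite strands, with Log2FCs of -0.26 and -0.20. *Col4a3* and *Col4a4*, whose starts are 72 bases apart, had Log2FCs of 0.09 and -0.28, and *Col4a5* and *Col4a6* on the X chromosome, 1309 bases apart, -0.16 and -0.02. *Col9a1* (plus strand) and *Col19a1* (minus strand) lie tail to tail, with 9206 bases between their ends and not their starts. Their Log2FCs were 1.89 and -0.12. *Col6a5* lies between *Col6a6* and *Col6a4* on chromosome 9, and their Log2FCs were -0.70, -0.10 and -0.22. The difference between neighbours was not tested. Annotated exons of *Col9a3* overlap *Tcfl5* on the opposite strand and those of *Col3a1* overlap *Gm47302* on the same strand, and whether strand was used in the counting is not known.

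The collagen genes moved together across libraries of the same genotype. Among the mutants, *Bmpr1a*-cKO library 1 had the highest log2 CPM for 29 of the 41 tested genes (70.7%), whereas it was highest for 33.6% of all genes tested. Control library 4 was the highest control for 24 of 41 (58.5%, against 21.1% of all genes), and control library 2 the lowest for 26 (63.4%, against 29.3%). These 41 genes share their libraries and are not independent. *Bmpr1a*-cKO library 1 was also the one with the fewest counts. Within each genotype, control 4 and *Bmpr1a*-cKO 1 also had the highest summed CPM of stromal (1003 and 988 CPM), endothelial (389 and 363 CPM) and perivascular markers (265 and 263 CPM). Control library 2, at 933, 350 and 233 CPM, was not the lowest control for any of these sums. The part that such differences between pools had in the results was not tested. With library 1 included, 2 genes did not overlap with *Bmpr1a*-cKO above (*Col9a1* and *Col5a3*, background 16.1%). The 6 with *Bmpr1a*-cKO below (background 11.7%) were *Col18a1*, *Col9a2*, *Col6a5*, *Col23a1*, *Col24a1* and *Col8a2*.

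**Figure D5:**
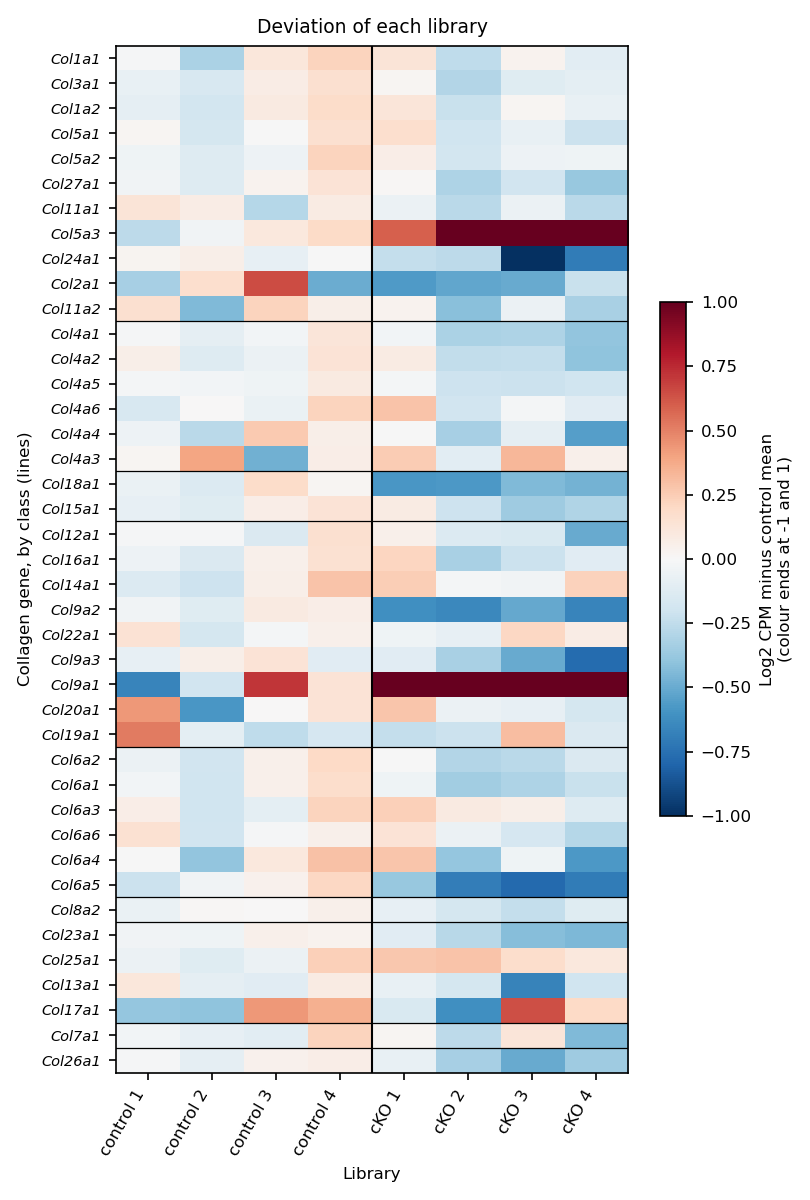
Log2 CPM (with a prior count of 2) of each of the 41 tested collagen genes in each library minus the mean of the 4 controls, by class; red is higher, blue lower, and the colours end at -1 and 1. *Bmpr1a*-cKO library 1 is the highest of the mutants for 29 genes. The rows of *Col18a1*, *Col9a2*, *Col9a1* and *Col5a3*, as well as several others such as *Col6a5* and *Col25a1*, keep 1 colour over all 4 mutants.

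Genes that fold, cut, cross-link, bind or degrade collagen were looked at beside the chains. Of 102 such genes 93 were tested, of which 3 were higher and 12 lower in mutant ovaries at an FDR below 0.05, with a median Log2FC of -0.08. These are 3.23% and 12.9% of the partner genes tested, beside 17.3% and 12.5% of all genes. The chaperones and modifying enzymes had 1 of 20 higher and 5 lower, all with small changes. *P4ha1*, a prolyl 4-hydroxylase subunit that stabilises the helix, was higher (Log2FC 0.22, FDR 0.0142), and *P3h4* (-0.27, FDR 0.0167), *P3h1* (-0.23, FDR 0.0268) and *Fkbp10* (-0.19, FDR 0.0290), of the prolyl 3-hydroxylation and lysyl hydroxylation machinery, were lower. The collagen chaperone *Serpinh1* had a Log2FC of -0.06 (FDR 0.529 by edgeR).

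Of the 6 tested procollagen processing genes, *Adamts14*, an N-propeptidase, was higher in mutant ovaries (Log2FC 0.56 ± 0.09, FDR 0.000322 by edgeR), while its relative *Adamts3* (-0.49, FDR 0.0175) and the enhancer *Pcolce* (-0.21, FDR 0.0344) were lower. None of the 7 cross-linking genes and none of the 9 tested receptor genes passed the test; the most abundant were peroxidasin *Pxdn* (Log2FC -0.05, FDR 0.705) and integrin beta1 *Itgb1* (0.09, FDR 0.346). Among 18 fibril-binding genes, fibronectin *Fn1* was higher (0.27, FDR 0.0169) and *Thbs1* lower (-0.32, FDR 0.0130). The proteases *Mmp15* (-0.33, FDR 0.00287) and *Mmp11* (-0.23, FDR 0.00939) were the 2 of 11 tested degradation genes that passed, both lower. Of 22 other basement membrane genes 2 passed, nephronectin *Npnt* (-0.88 ± 0.09, FDR 2.92e-06) and laminin beta2 *Lamb2* (-0.51 ± 0.09, FDR 0.000640), both downregulated. The number of partner genes that passed was 25 (26.9%, beside 35.2% of all genes) when *Bmpr1a*-cKO library 1 was left out. It was 6 (6.45%, beside 21.8%) without library 2 and 9 (9.68%, beside 23.3%) without library 4. Under scaling to stromal markers it was 7 (7.53%, beside 20.4%).

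Markers of the cells that the ovary could hold were measured in the same libraries. For comparison, 17.3% of all genes tested were higher and 12.5% lower at an FDR below 0.05. Of 10 stromal markers, *Gli1* (Log2FC 0.91, FDR 0.000194) and *Ptch1* (0.25, FDR 0.0181), which are hedgehog targets, were higher and the other 8 did not pass, with a summed level of 869 to 1003 CPM in control and 881 to 988 CPM in mutant libraries. All 8 pregranulosa markers had negative Log2FCs and 7 passed the test, among them *Foxl2* (-0.57, FDR 1.80e-05) and *Rspo1* (-0.48, FDR 0.000112). Their sum was 1290 to 1554 CPM in control and 1093 to 1306 CPM in mutant libraries. None of the 9 endothelial or 7 perivascular markers passed the test, the most abundant being *Kdr* (-0.11, FDR 0.205) and *Notch3* (-0.02, FDR 0.925), and their sums overlapped, at 335 to 389 against 313 to 363 CPM and 222 to 265 against 224 to 263 CPM. Of 6 tested macrophage markers 5 were higher, *Adgre1* (0.78, FDR 0.00227) and *C1qc* (0.89, FDR 0.00383) among them, and of 8 germ cell markers 5 were higher and 1 lower, with *Kit* (0.80, FDR 5.49e-06) and *Dppa3* (1.58, FDR 5.99e-05) among the former. Sums of cartilage markers were 21.5 to 31.1 CPM in control and 20.3 to 28.1 CPM in mutant libraries. Of the mesonephric markers 1 of 6 was lower (*Emx2*, -0.26, FDR 0.0202), of the Sertoli markers 2 of 5 (*Sox9*, -0.44, FDR 0.0135, and *Cyp26b1*) and of the steroidogenic markers 1 of 4 (*Hsd3b1*, -0.63, FDR 0.00561). Macrophage sums did not overlap, at 29.7 to 38.4 CPM in control and 42.2 to 56.1 CPM in mutant libraries. Nor did mesonephric (133 to 163 against 104 to 123 CPM) and Sertoli sums (16.7 to 19.5 against 14.2 to 14.6 CPM). Germ cell (632 to 882 against 791 to 1200 CPM) and steroidogenic sums (42.2 to 48.4 against 25.0 to 43.6 CPM) overlapped. None of the 3 tested surface epithelial or 2 tested erythroid markers passed, the most abundant being *Upk3b* and *Alas2*, and 4 globin genes were listed at 0. The part of these cell types in the collagen values was not tested.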

How the data were processed

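RNA-Seq counts of 4 control and 4 *Bmpr1a*-cKO ovary pools at E14.5 were analysed, all 8 grouped by their genotype labels. The authors trimmed reads with Trimmomatic 0.39, checked them with FastQC 0.11.9, mapped them with STAR 2.5.2 to mm10 and deposited whole-number counts per gene symbol for each library, without normalization. The annotation and strand setting of that counting are not given in the sources used here. A deposited CPM table was not used.

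From the counts, edgeR 4.0.16 in R 4.3.3 was used. Low counts were filtered with filterByExpr by genotype, scaling was by TMM, and the 2 genotypes were compared by a two-sided quasi-likelihood F test with a Benjamini-Hochberg FDR over all 14249 genes tested. A differentially expressed gene had an absolute Log2FC above 0.5 with an FDR below 0.05. Counts per library were 8562961 to 15365052, so that 10 counts are 0.630 to 1.19 CPM. Values are means with the SD of 4 libraries, and the SE of a Log2FC comes from the fit. P-values measure the spread between these pools, whose litters are not given in the labels. The procedure was tested on simulated data.

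Values in every library are given for each collagen gene with an FDR below 0.05, the 6 with the highest mean CPM and the tested collagen IV genes, the others by range or Log2FC, and for other lists at most 4 genes, those of the smallest FDR below 0.05, or else the most abundant. *Bmpr1a*, *Pdgfra*, *Nr2f2*, *Acan*, *Serpinh1* and 4 low cartilage genes were named in addition, after their values were seen. The collagen genes and lists were chosen with earlier results of these data known. Gene positions and exon lengths came from GENCODE vM21 and upstream sequences from RefSeq (GRCm38.p6). Protein sequences were not used here.

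The alternatives were DESeq2 1.42.0 and limma-voom (limma 3.58.1); RLE, library size, germ cell marker and stromal marker scaling; no filter or CPM above 1 in 4 libraries; leaving out *Rn45s*; the replicate number as a block; and each library left out in turn.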

Additional observations from a re-analysis of the deposited data

Results flagged for a closer look

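The values of the 19 collagen genes given by library were searched for a library far from the other 3 of its genotype, in 38 sets of 4 libraries. Chance alone marks about 1 in 20 such sets, and 2 were marked, both of *Col4a5*. Control library 4 stood at 118 CPM, above the other controls at 108 to 110 CPM, and *Bmpr1a*-cKO library 1 stood at 110 CPM, above the other mutants at 96.1 to 97.3 CPM. Without the mutant library the FDR of *Col4a5* by edgeR was 0.00940, and over all 8 fits that left out 1 library it ran from 0.00940 to 0.179.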

How the results depend on the processing

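The 2 collagen genes called higher were 2 under every alternative run, and the 3 genes not expressed were the same number under both other rules. Germ cell marker scaling moved the median Log2FC of all genes to -0.51. Under it the collagen median was -0.67, 30 collagen genes (73.2%; 49.5% of all genes) were called lower, 35 (85.4%; 60.9% of all genes) had an FDR below 0.05, 76 partner genes (81.7%) passed, and *Col4a3* reversed to -0.45. The collagen median relative to that of all genes was -0.15 there and -0.16 in the reported fit. Library size alone gave 15 collagen genes with an FDR below 0.05 (36.6%, beside 30.4% of all genes). Stromal marker scaling gave 7 partner genes (7.53%, beside 20.4% of all genes). The 8 germ cell markers behind the first of these scalings had a median Log2FC of 0.60 in the reported fit, with 5 higher and 1 lower. The cause of these shifts was not tested.

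Leaving out 1 library at a time, the collagen genes called lower were 2 to 5, beside 3.49% to 4.48% of all genes. Those with an FDR below 0.05 were 6 to 18 (14.6% to 43.9%), beside 21.8% to 35.2% of all genes. The partner genes that passed were 6 to 25 (6.45% to 26.9%). The median Log2FC ran from -0.22 to -0.12 and the log2 difference of summed collagen CPM from -0.19 to -0.073. The highest counts were those without *Bmpr1a*-cKO library 1. Near-zero Log2FCs changed sign in these fits, with ranges of -0.15 to 0.020 for *Col1a1*, -0.10 to 0.024 for *Col1a2*, -0.12 to 0.064 for *Col4a6* and -0.046 to 0.23 for *Col4a3*. Signs turned without control library 4 or *Bmpr1a*-cKO library 2 for the first 3 (for *Col4a6* also without *Bmpr1a*-cKO library 4) and without control library 3 for *Col4a3*.

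With the replicate block, 11 collagen genes (26.8%, beside 33.5% of all genes) had an FDR below 0.05, *Col4a5* and *Col27a1* being added to the 9, 2 were called higher and 3 lower, and 18 partner genes passed. The deviations of same-numbered libraries correlated at 0.20, 0.16, 0.11 and -0.087, and those of differently numbered ones at -0.20 to 0.18. The numbers were not taken as pairs because 1 of the 4 was not above 0.1, and not every library correlated best with its own number. Genes near 1 CPM rest on 8 to 30 counts a library, and small changes of these were not detectable at this depth.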
